A study of Mus musculus with 8 samples.

Results

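Glutathione S-transferases join glutathione, the main small thiol of the cell, to reactive electrophiles, and the conjugates are then exported and broken down. The soluble enzymes fall into classes named by Greek letters, each with its own preferred substrates, and a separate membrane-bound family sits in the endoplasmic reticulum and the outer mitochondrial membrane. In rodent liver several of these genes are known targets of NRF2, a transcription factor that is released when electrophiles or oxidants modify its inhibitor KEAP1.

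The mRNA levels of 10 transferase genes were described in 2 cell types exposed to auranofin, a gold compound reported to inhibit thioredoxin reductase. The study found that protein lacking in both cell types. It proposes the cystine and glutamate antiporter system Xc as the target there. The genes were chosen by name, with earlier results of these data known. They were Gsta3 and Gsta4 of the alpha class, Gstm1, Gstm2 and Gstm5 of the mu class, and Gsto1 of the omega class. The others were Gstp1 of the pi class, Gstt1 and Gstt2 of the theta class, and the microsomal Mgst1. All 10 were found among the 18645 genes listed for hepatic stellate cells (HSCs) and among the 17408 genes listed for bone marrow-derived macrophages (BMDM).

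RNA sequencing of poly(A)-selected, stranded libraries was performed on 8 libraries, with 2 in each of 4 groups. Primary HSCs, the vitamin A-storing and collagen-producing cells of the liver, came from livers of C57BL/6 mice by density gradient centrifugation and are labelled as activated. They received vehicle (labelled untreated) or auranofin at 0.03 µM, for 12 h. BMDM were grown with M-CSF for 7 days from marrow of 8-week-old male C57BL/6 mice, and both BMDM groups received LPS at 100 ng/mL and ATP at 1 mM. The BMDM of the auranofin group were also exposed to auranofin for 1 h, at 0.1 µM by the labels and 0.3 µM by the figure legend of the study. Neither source says whether replicates came from separate animals or cultures, so the p-values measure only the spread between these libraries, which may be technical.

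Levels are given in FPKM, fragments per gene scaled to transcript length and library size, as deposited. From steps between the lowest values, the depth was estimated at 27500000 to 39600000 fragments per library. Each cell type was tested alone with limma on log2(FPKM + 1), over genes whose mean reached 1 FPKM. A gene was said to rise or fall when its Benjamini-Hochberg adjusted p over all genes tested was under 0.05. Fold changes on this scale understate the change of genes with low levels. With 2 libraries on each side, exact permutation reaches no p below 0.333 and was not used.

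Marker genes bear on which cells the libraries held. In the HSC libraries the stellate markers Acta2 (956 and 965 FPKM with vehicle, 743 and 737 with auranofin) and Col1a1 (1001 and 1075, then 927 and 973) were abundant. The same libraries held the macrophage markers Lyz2, at 5379 to 5554 FPKM, and Adgre1, at 103 to 111 FPKM, and the endothelial marker Stab2, at 15.9 to 21.5 FPKM. Hepatocyte markers were near 0. Of 12 on the list 10 were in the table, none reached a mean of 1 FPKM, and Alb stood at 0.455 and 1.22 FPKM with vehicle and 0.374 and 0.259 with auranofin. Apoa1 was at 0 in 3 of the 4 HSC libraries. In BMDM, Lyz2 stood at 3625 to 4278 FPKM and Adgre1 at 359 to 418 FPKM, while Clec4f and Vsig4, markers of liver macrophages, were under 1 FPKM, against 58.6 to 73.5 and 249 to 261 FPKM in the HSC libraries (named after their values were seen). The stellate list summed to 2893 to 3033 FPKM in BMDM, nearly all of it Vim (2883 to 3026 FPKM), a filament gene not particular to stellate cells, while Acta2 stood at 0.802 to 1.10 FPKM and Col1a1 at 1.59 to 2.87 FPKM. Which cells of the HSC cultures carried the transferase mRNA, and whether a level reflects the number of cells of a type or the RNA per cell, cannot be told apart in bulk RNA.

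In HSCs, 5 of the 10 transferase genes rose with auranofin and none fell. Gsta3, Gsta4 and Gstm1 rose more than 2-fold, and Gstp1 and Mgst1 rose less than 1.5-fold. Among all 12149 genes tested, 1.24% rose and 1.09% fell (limma, Benjamini-Hochberg adjusted p under 0.05). The 5 genes that did not pass were Gstm2, Gstm5, Gsto1, Gstt1 and Gstt2, so the mu class was divided and neither theta gene passed. At the thresholds printed in the figures of the study, at least 1.5-fold with an unadjusted p under 0.05, 3 of the 10 genes were higher and none lower, against 0.428% and 0.148% of all genes tested.

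Both alpha-class genes rose in HSCs. Gsta3, whose product in the mouse is known for conjugating the epoxide of aflatoxin, had levels of 5.53 and 4.87 FPKM (vehicle) against 17.2 and 14.1 FPKM (auranofin). Its lower auranofin library was well above its higher vehicle library, and the group means were 5.20 ± 0.471 and 15.7 ± 2.19 FPKM (SD, n = 2 each), a ratio of 3.01. The log2 fold change of Gsta3 was 1.42 (SE 0.10, 95% confidence interval 1.17 to 1.67, limma adjusted p = 0.00445). Gsta4, whose product conjugates aldehydes formed by lipid peroxidation, had levels of 15.0 and 14.7 FPKM (vehicle) against 36.4 and 30.8 FPKM (auranofin). The groups of Gsta4 did not overlap, and its log2 fold change was 1.12 (SE 0.08, interval 0.93 to 1.32, limma adjusted p = 0.00442). The Gsta3 level of the vehicle libraries rested on an estimated 254 and 233 fragments, and the auranofin levels on 747 and 815.

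The 3 mu-class genes went different ways in HSCs. Gstm1, an enzyme for epoxides and other electrophiles, had levels of 83.7 and 81.5 FPKM (vehicle) against 183 and 172 FPKM (auranofin). This was the largest gain in FPKM among the 10 genes, with group means of 82.6 ± 1.61 and 178 ± 8.08 FPKM (SD, n = 2 each) and a log2 fold change of 1.10 (SE 0.04, interval 0.99 to 1.20, limma adjusted p = 0.00132). Gstm2, its close relative, had levels of 66.7 and 67.3 FPKM (vehicle) against 75.1 and 73.0 FPKM (auranofin). The groups of Gstm2 did not overlap, but the estimate of 0.14 (interval 0.06 to 0.23) did not pass after adjustment (limma adjusted p = 0.113). Gstm5 had levels of 32.1 and 28.6 FPKM (vehicle) against 29.6 and 30.7 FPKM (auranofin). Both auranofin libraries of Gstm5 lay between the vehicle libraries, and the interval of its log2 fold change was −0.16 to 0.14. The ratio of Gstm1 to Gstm2 within a library was 1.26 and 1.21 with vehicle and 2.44 and 2.36 with auranofin.

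Gstp1 and Mgst1 were the most abundant of the 10 genes in the vehicle-treated HSCs. Gstp1, the pi-class enzyme, which also binds the stress kinase JNK, had levels of 105 and 101 FPKM (vehicle) against 142 and 136 FPKM (auranofin). Its log2 fold change was 0.43 (SE 0.04, interval 0.33 to 0.53, limma adjusted p = 0.0101). The call of Gstp1, not its estimate, depended on the filter. With no filter on low values the estimate was again 0.43, with a limma adjusted p of 0.0542, in a range of 0.000934 to 0.0542 over the alternatives run. Mgst1, a membrane enzyme that conjugates electrophiles and also reduces lipid hydroperoxides, had levels of 147 and 143 FPKM (vehicle) against 208 and 209 FPKM (auranofin). The auranofin libraries of Mgst1 differed by less than 1 FPKM, and its log2 fold change was 0.52 (SE 0.03, interval 0.44 to 0.60, limma adjusted p = 0.00372).

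The omega-class and theta-class genes did not pass in HSCs. Gsto1, which acts as a thioltransferase and reduces dehydroascorbate and arsenic compounds, had levels of 76.8 and 72.5 FPKM (vehicle) against 94.6 and 85.1 FPKM (auranofin). Its groups did not overlap, and the estimate was 0.26 (interval 0.12 to 0.41, limma adjusted p = 0.0962). Without vehicle replicate 1 Gsto1 passed, at 0.30 with a limma adjusted p of 0.0325. Gstt1, which handles small halogenated compounds, had levels of 8.14 and 8.39 FPKM (vehicle) against 7.39 and 7.58 FPKM (auranofin). Gstt1 was the only one of the 10 genes with both auranofin libraries below both vehicle libraries, with an estimate of −0.13 (interval −0.25 to −0.01, limma adjusted p = 0.254). Gstt2 had levels of 5.44 and 4.79 FPKM (vehicle) against 5.06 and 5.58 FPKM (auranofin), and its groups overlapped. In all, 7 of the 10 genes had both auranofin libraries above both vehicle libraries and 1 had both below, where 26.2% and 23.9% of all genes tested did.

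**Figure D1:**
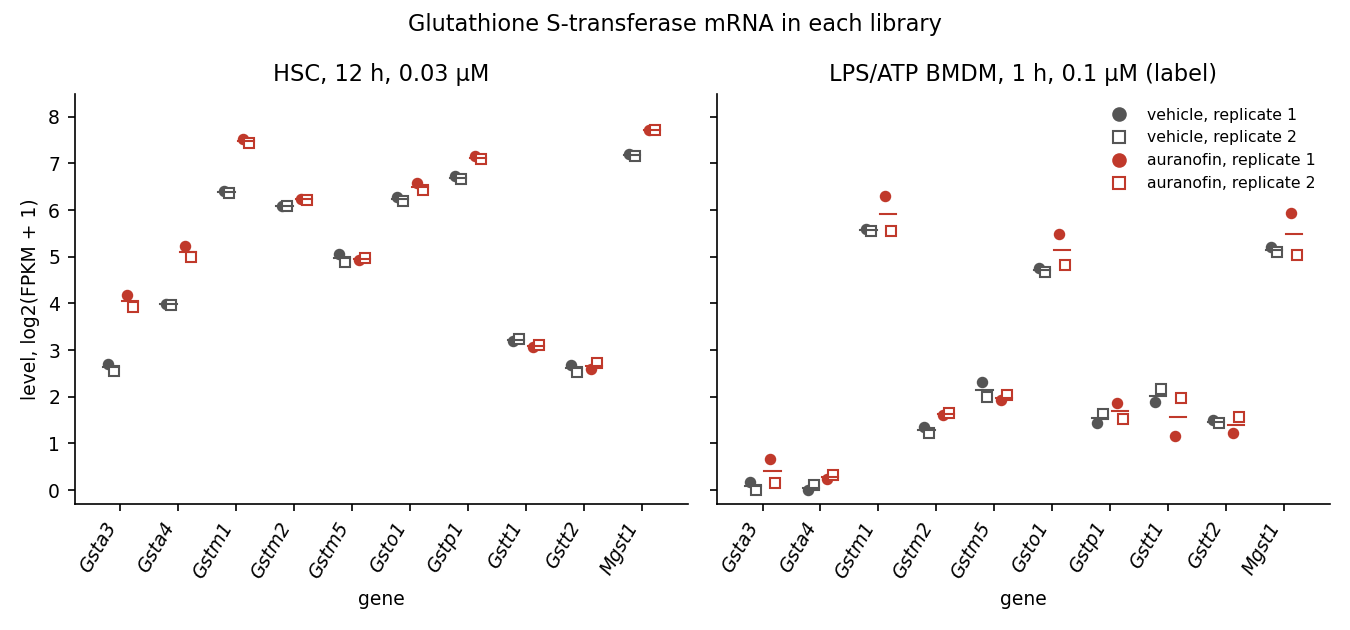
Level of each transferase gene as log2(FPKM + 1), with 1 point per library and a short line at each group mean, for HSCs (left) and LPS- and ATP-treated BMDM (right). In HSCs the auranofin points of Gsta3, Gsta4 and Gstm1 stand apart from the vehicle points, and in BMDM the first auranofin library stands above the other 3 for Gstm1, Gsto1 and Mgst1.

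**Figure D2:**
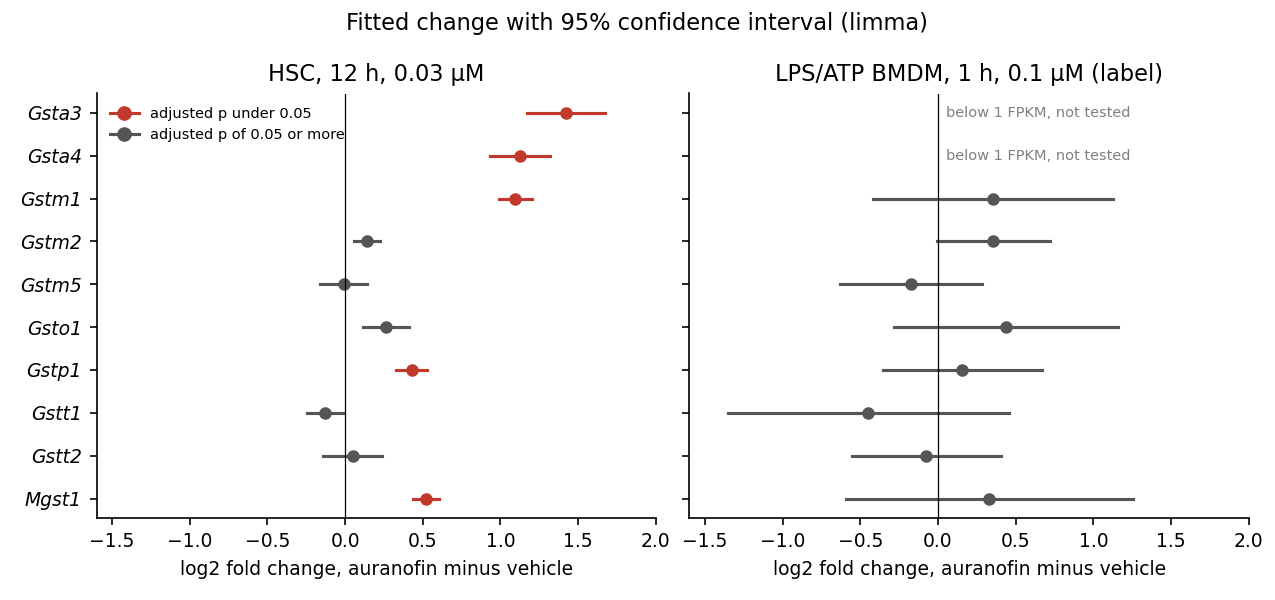
Fitted log2 fold change, auranofin minus vehicle, with its 95% confidence interval from limma for each transferase gene in HSCs (left) and BMDM (right). In HSCs the 5 red intervals, of genes with an adjusted p under 0.05, lie above 0, and in BMDM the 8 intervals drawn all include 0.

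The rises changed the order and the mix of the 10 transcripts. With vehicle, the level fell in the order Mgst1, Gstp1, Gstm1, Gsto1, Gstm2, Gstm5, Gsta4, Gstt1, Gsta3 and Gstt2, and only the last pair overlapped. With auranofin, Gstm1 stood above Gstp1, Gsta4 above Gstm5, and Gsta3 above Gstt1, and no neighbours overlapped. The summed level was 546 and 526 FPKM (vehicle) against 799 and 764 FPKM (auranofin). The alpha class made up 3.75% and 3.72% of this sum with vehicle and 6.71% and 5.89% with auranofin, and the mu class 33.4% and 33.7%, then 36.1% in both libraries. The shares of the omega class (14.1% and 13.8%, then 11.9% and 11.2%), the pi class (19.3% and 19.1%, then 17.8% in both) and the theta class (2.49% and 2.51%, then 1.56% and 1.72%) were lower with auranofin. The microsomal share was 27.0% and 27.1% with vehicle and 26.1% and 27.3% with auranofin. Because shares sum to a whole, a lower share does not show a lower level.

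**Figure D3:**
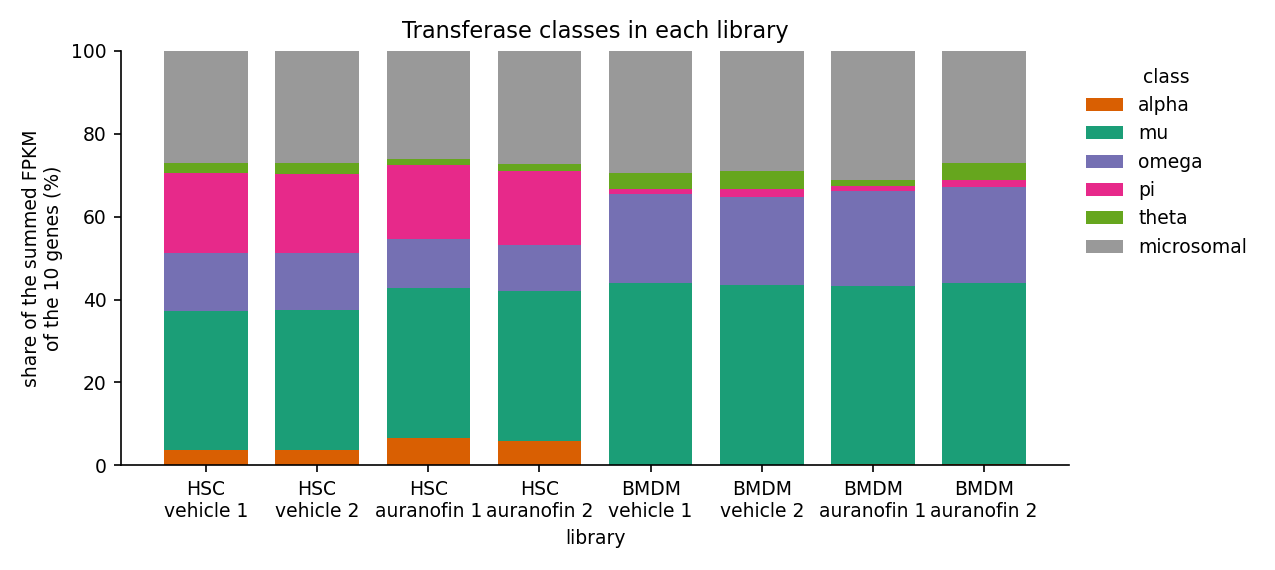
Share of the summed FPKM of the 10 transferase genes taken by each class, in percent, with 1 stacked bar per library. The alpha share is larger in the HSC auranofin libraries than in the HSC vehicle libraries, and the pi share, 17.8% to 19.3% in HSCs, is 1.38% to 1.83% in BMDM.

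Markers of other cells were set beside these rises. Alpha and mu transferases are abundant in hepatocytes, whose markers summed to 2.24 and 3.68 FPKM (vehicle) against 1.16 and 1.70 FPKM (auranofin). None of these markers reached a mean of 1 FPKM or was tested, so the sums lie near the floor and give no direction. Of 12 macrophage markers all were tested, and Clec4f rose (0.27) and Mrc1 fell (−0.28) on the log2 scale by limma. Their summed level was 7954 and 8094 FPKM (vehicle) against 7776 and 7815 FPKM (auranofin). Of 10 endothelial markers 3 fell, Stab2, Clec4g and Fcgr2b, with sums of 501 and 484 FPKM, then 478 and 456 FPKM. Of 12 stellate markers 1 fell, Acta2 (−0.38), with sums of 4710 and 4871 FPKM, then 4137 and 4275 FPKM. Of 8 cholangiocyte markers 3 were tested and none passed (limma, 2 with an unadjusted p under 0.05). Krt19 stood at 6.26 to 7.40 FPKM, and the sums were 372 and 477 FPKM, then 362 and 422 FPKM. In BMDM the same list summed to 3762.5 to 4672.4 FPKM with 1 gene tested, so this sum is not particular to cholangiocytes. The part of the endothelial and stellate differences in the transferase values was not tested.

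The genomic positions place the mu and pi genes beside close copies. On mm10, the mu genes form a cluster of 7 on chromosome 3 over 149326 bases, in the order Gstm5, Gstm7, Gstm6, Gstm3, Gstm2, Gstm1 and Gstm4. Gstm1, which rose, lies at chr3:108012250-108017973, and Gstm2, which did not pass, at chr3:107981702-107986420. Gstp1 (chr19:4035411-4037912) and Gstp2 lie within 6811 bases of chromosome 19. Gsta3 (chr1:21240565-21265575) and Gsta4 (chr9:78191966-78209349) are on different chromosomes, and Mgst1 lies at chr6:138140527-138156755. Gstm5 lies at chr3:107895854-107898685, Gsto1 at chr19:47854973-47864790, Gstt1 at chr10:75783813-75798584 and Gstt2 at chr10:75831842-75837419.

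Close copies can share reads. Of the 50-base windows in the GENCODE M21 transcript of Gstp1, 62.3% also occur in Gstp2, so the split of reads between them is uncertain. Gstp2 had levels of 12.1 and 12.4 FPKM (vehicle) against 18.0 and 15.5 FPKM (auranofin) in HSCs (log2 fold change 0.42, limma adjusted p = 0.0515). With the levels of Gstp1 and Gstp2 added before the fit, an alternative chosen after seeing the data, the log2 fold change was 0.43 (limma adjusted p = 0.0104). For Gstm1, 23.1% of windows occur in the transcripts of other genes, 17.3% in the pseudogene Gstm2-ps1, and for Gstm2 9.36% do. The other 7 genes share no such window.

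The stretch before the transcription start was printed for the genes that rose in HSCs and have a RefSeq promoter window, and for Gstm5, which did not pass and holds both motifs searched. Capitals mark the core of the antioxidant response element bound by NRF2, searched as TGACNNNGC on both strands, and the AP-1 type element, searched as TGANTCA, which reads the same on both strands. The core occurs in 10.2% and the AP-1 type element in 6.75% of all 32851 RefSeq windows of this length. Each line gives the 250 bases before the start, 5′ to 3′ on the strand of the gene (RefSeq, GRCm38.p6, the assembly of mm10). Gstm1 and Mgst1 had 2 windows each, for different starts, and only the first is printed. Gsta4, which rose, had no window.
Gsta3 (chr1:21240335-21240584, plus strand): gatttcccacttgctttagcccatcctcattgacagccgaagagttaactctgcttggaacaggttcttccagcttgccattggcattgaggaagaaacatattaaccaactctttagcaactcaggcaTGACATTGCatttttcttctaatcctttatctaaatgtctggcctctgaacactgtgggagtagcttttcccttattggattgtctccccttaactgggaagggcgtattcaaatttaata
Gstm1 (chr3:108017974-108018223, minus strand): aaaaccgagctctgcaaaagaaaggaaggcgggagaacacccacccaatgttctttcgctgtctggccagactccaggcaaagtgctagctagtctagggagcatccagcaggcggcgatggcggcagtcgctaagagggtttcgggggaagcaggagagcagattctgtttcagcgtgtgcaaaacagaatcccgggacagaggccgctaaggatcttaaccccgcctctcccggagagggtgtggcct
Gstp1 (chr19:4037913-4038162, minus strand): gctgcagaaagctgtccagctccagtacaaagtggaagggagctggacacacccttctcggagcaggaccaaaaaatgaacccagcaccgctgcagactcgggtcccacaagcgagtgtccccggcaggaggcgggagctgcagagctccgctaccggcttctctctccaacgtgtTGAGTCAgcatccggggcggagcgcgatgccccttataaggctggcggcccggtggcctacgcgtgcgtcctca
Mgst1 (chr6:138140277-138140526, plus strand): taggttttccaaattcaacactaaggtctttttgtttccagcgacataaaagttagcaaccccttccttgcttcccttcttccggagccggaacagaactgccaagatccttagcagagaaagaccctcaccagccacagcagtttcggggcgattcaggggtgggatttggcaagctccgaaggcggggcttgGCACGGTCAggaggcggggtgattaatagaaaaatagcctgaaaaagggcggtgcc
Gstm5 (chr3:107895604-107895853, plus strand): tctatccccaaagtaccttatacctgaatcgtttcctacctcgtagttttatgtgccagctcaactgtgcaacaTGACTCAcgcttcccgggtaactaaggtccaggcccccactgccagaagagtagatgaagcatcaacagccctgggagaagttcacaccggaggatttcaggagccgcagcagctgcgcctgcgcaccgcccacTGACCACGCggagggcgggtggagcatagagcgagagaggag

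The antioxidant core lies 121 to 113 bases before the start of Gsta3, as TGACATTGC, and 56 to 48 bases before the start of Mgst1, where the match is on the opposite strand. Gstp1 holds the AP-1 type element TGAGTCA 74 to 68 bases before its start. Gstm5 holds the antioxidant core 42 to 34 bases and the AP-1 type element 176 to 170 bases before its start. The matches do not overlap each other. Neither motif was found in either window of Gstm1, in the windows of Gstm2, Gsto1 and Gstt1, or in the second window of Mgst1. A match describes the letters and not a bound site, and the absence of one says only that these letters are not in this window.

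Transferase genes outside the 10 were called in neither direction in HSCs. Of 19 on the list, 17 were in the table and 12 were tested, with 4 at an unadjusted p under 0.05 and a median log2 fold change of 0.08, against 0.35 for the 10 genes and 0.00 for all genes tested. With a library left out, 0 to 3 of them rose and 0 to 1 fell (limma), the most without vehicle replicate 1. Besides Gstp2, those whose mean reached 10 FPKM in HSCs were Mgst3 and Hpgds. Mgst3, a microsomal relative with peroxidase activity, had levels of 33.7 and 35.5 FPKM (vehicle) against 29.2 and 29.8 FPKM (auranofin), lower in both libraries without passing (−0.22, limma adjusted p = 0.0641). Hpgds, the haematopoietic prostaglandin D synthase, overlapped between groups at 26.5 and 28.8 FPKM, then 22.9 and 26.6 FPKM. Gsta1, another alpha-class gene, was at 0 in the table for each vehicle library and at 0.630 and 0.533 FPKM with auranofin, an estimated 16.4 and 18.5 fragments. It was too low for the test and was named after its values were seen.

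Genes before and after the transferase step were counted in the same way in HSCs. Of 12 genes of glutathione supply, 11 were tested, 4 rose and none fell, and 2 rose without auranofin replicate 1 (limma). Gclm, the modifier subunit of the first enzyme of glutathione synthesis, went from 40.0 and 34.9 FPKM to 121 and 107 FPKM (log2 fold change 1.58, limma adjusted p = 0.0021), and the catalytic subunit Gclc rose by 0.49. Slc7a11, the cystine carrier of system Xc, rose by 0.74 and Gsr, glutathione reductase, by 0.68. The supply list also holds Ggct, Oplah, Chac1 and Chac2, of glutathione breakdown and the recovery of its parts. Their estimates were −0.04, −0.14, −0.10 and −0.04, and none passed (limma). They count in the median of the list. Of 21 genes that export or break down conjugates, 15 were tested and 3 rose, all exporters of the ABCC family. Abcc1 went from 31.7 and 30.8 FPKM to 49.4 and 46.0 FPKM (0.59, limma adjusted p = 0.00606), Abcc4 rose by 0.63 and Abcc3 by 0.55. The tested enzymes on that list that take glutathione conjugates apart did not pass. Of 20 NRF2 targets outside the transferases, 18 rose, led by Hmox1 (1.68), Gclm (1.58), Nqo1 (1.46), Srxn1 (1.18) and Prdx1 (1.01), and Me1 and Tkt did not pass. The lists of supply and NRF2 genes share Gclm, Gclc, Slc7a11 and Gsr. The median log2 fold change was 0.66 for the NRF2 list, 0.20 for the supply list and 0.09 for the conjugate list. With a library left out, these medians ran from 0.60 to 0.72, 0.03 to 0.30 and 0.10 to 0.12. Fewer NRF2 targets passed when an auranofin library was left out, and genes of the conjugate list fell only without vehicle replicate 1.

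In BMDM, 1 auranofin library stood apart from the other 3. Of the 4245 genes whose mean reached 10 FPKM, 413 were 2-fold or more apart between its auranofin libraries, against 15 between its vehicle libraries. Auranofin replicate 1 differed in this way from the vehicle libraries in 406 and 424 genes, and auranofin replicate 2 in 16 and 12. Hmox1, the haem oxygenase that marks the NRF2 response, stood at 82.7 and 86.7 FPKM with vehicle and at 4403 and 85.3 FPKM with auranofin. Both auranofin libraries carry the same label, so values are given for both, and the calls also without each.

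None of the transferase genes was called in BMDM. Of the 10 genes 8 were tested, and 0 passed at an adjusted p under 0.05, at an unadjusted p under 0.05 or at the 1.5-fold threshold (limma). Among all 9232 genes tested 0.0108% passed the adjusted threshold and 0.152% the 1.5-fold threshold, so a count of 0 here carries little information. Both auranofin libraries stood above both vehicle libraries in 2 of the 8, Gstm2 and Gsto1, and below them in none, where 26.3% and 12.6% of all genes tested did.

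Gstm1, Mgst1 and Gsto1 were the abundant transferase transcripts of BMDM. Gstm1 had levels of 47.7 and 45.7 FPKM (vehicle) against 77.4 and 46.3 FPKM (auranofin). Mgst1 had levels of 35.9 and 33.4 FPKM (vehicle) against 59.96 and 31.9 FPKM (auranofin), and Gsto1 had 26.0 and 24.5, then 43.9 and 27.2 FPKM. For all 3 the first auranofin library was high, and the second lay close to the vehicle libraries. The estimates were 0.35 for Gstm1 (interval −0.42 to 1.12), 0.33 for Mgst1 (−0.59 to 1.25) and 0.44 for Gsto1 (−0.28 to 1.16), each with a limma adjusted p of 0.721. Without auranofin replicate 1 they were −0.01, −0.11 and 0.10, and none passed. Without auranofin replicate 2 they were 0.72, 0.78 and 0.77, and 5 of the 8 genes passed, these 3, Gstm2 (0.34) and, lower, Gstt1 (−0.85), with limma adjusted p from 0.000359 to 0.0358, where 4201 genes rose and 1850 fell of 9285 tested.

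The remaining BMDM levels were below 5 FPKM. Gstm2 had levels of 1.54 and 1.33 FPKM (vehicle) against 2.08 and 2.16 FPKM (auranofin), and was the only tested gene for which both auranofin libraries were higher by a like amount (0.34 and 0.38 above the vehicle mean on the log2 scale). Its interval was −0.01 to 0.72, and these levels rest on an estimated 39.0 to 79.1 fragments. Gstt1 had levels of 2.69 and 3.47 FPKM (vehicle) against 1.25 and 2.94 FPKM (auranofin), so that its first auranofin library was low. Gstm5 ranged from 2.83 to 3.97 FPKM, Gstp1 from 1.73 to 2.66 FPKM and Gstt2 from 1.34 to 1.95 FPKM, and the groups of each overlapped. The alpha genes were too low to test, with Gsta3 at 0.133 and 0 FPKM with vehicle and 0.580 and 0.115 with auranofin, and Gsta4 at 0 and 0.0759, then 0.179 and 0.256. These stand for at most an estimated 29.4 fragments per library. Without auranofin replicate 1, the estimates were 0.38 for Gstm2, −0.13 for Gstm5, −0.02 for Gstp1, −0.04 for Gstt1 and 0.09 for Gstt2, and 0 of the 8 genes passed (limma, with Gstm2 at an unadjusted p under 0.05).

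**Figure D4:**
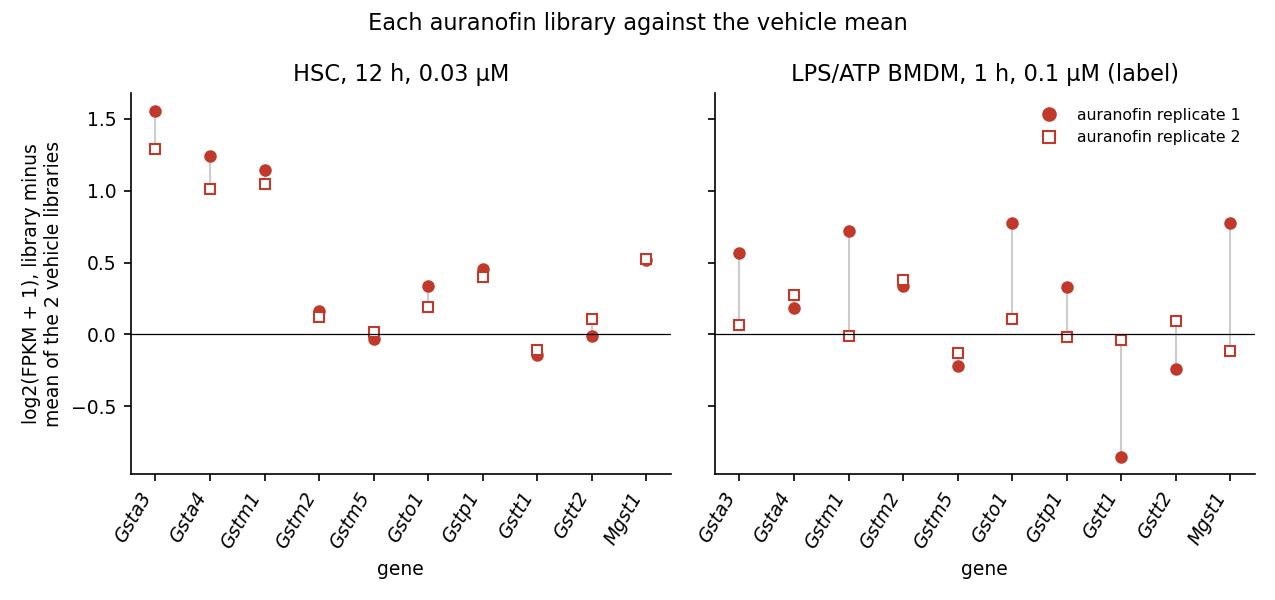
Difference of each auranofin library from the mean of the vehicle libraries on the log2(FPKM + 1) scale, for each transferase gene in HSCs (left) and BMDM (right), with a circle for replicate 1 and a square for replicate 2. The pairs lie close together in HSCs, whereas in BMDM replicate 1 is 0.72 to 0.78 above the vehicle mean for Gstm1, Gsto1 and Mgst1 and 0.85 below it for Gstt1, and replicate 2 is near 0.

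In BMDM, the 8 tested genes had a median difference from vehicle of 0.33 in auranofin replicate 1 and −0.02 in replicate 2. Over all genes tested in each, the median was 0.18 in replicate 1 (without replicate 2) and 0.01 in replicate 2 (without replicate 1). The NRF2 targets outside the transferases had medians of 1.75 and 0.01, the supply genes 1.42 and −0.07, and the conjugate genes (0.16 and −0.03) and the other transferases (0.13 and −0.03) did not exceed the median of all genes in either. In none of these lists did a gene pass (limma, 0 genes at an unadjusted p under 0.05), with 10 other transferase genes, 11 conjugate genes, 9 supply genes and 19 NRF2 targets tested. Without auranofin replicate 1 again none passed, with 1, 1, 1 and 2 genes at an unadjusted p under 0.05. Without auranofin replicate 2, limma called 2 other transferase genes, 3 conjugate genes, 8 supply genes and 19 NRF2 targets higher and 1, 2, 1 and 0 lower. The supply genes counted here include Chac1, Ggct and Chac2, of glutathione breakdown and recovery. In auranofin replicate 1, Chac1 (0.91) and Ggct (0.22) were above and Chac2 (−0.74) below the vehicle mean on the log2 scale. In replicate 2 the values were 0.12, 0.01 and 0.15. Among the other transferases, Hpgds (14.1 and 15.4, then 31.0 and 14.03 FPKM) was high and Ptges, a prostaglandin E synthase (27.2 and 25.0, then 12.3 and 27.7 FPKM), low in auranofin replicate 1 alone. Mgst3, by contrast, was above vehicle in both, at 27.7 and 27.6 FPKM, then 34.3 and 31.8 FPKM (0.25, limma adjusted p = 0.721). The estimate of Mgst3 was 0.20 without auranofin replicate 1 (limma adjusted p = 0.53) and 0.30 without replicate 2 (limma adjusted p = 0.00467).

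Side by side, the vehicle levels of the cell types differed most for Gstp1 and Gstm2 among the 8 genes whose mean reached 1 FPKM in both. The HSC mean of Gstp1 was 53.6 times and that of Gstm2 46.6 times the BMDM mean, that of Gstm5 8.71 times and that of Mgst1 4.19 times. Gsto1, Gstt2, Gstt1 and Gstm1 had ratios of 2.96, 2.89, 2.69 and 1.77. Gsta3 and Gsta4, at 5.20 and 14.8 FPKM in HSCs, were close to 0 in BMDM. The tables were normalized separately, and the vehicle groups differ in time and in LPS and ATP treatment. The HSC libraries also held macrophage and endothelial markers, so the ratios compare libraries and not pure cell types. These ratios were not tested.

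The genes whose pattern was most like the 3 largest rises were listed by Pearson's r over the 8 libraries, on log2 levels centred on the vehicle mean of each cell type, among 8963 genes. For Gsta3 they were Clec4n (0.99), Cdc42se1 (0.98) and D17Wsu92e (0.977), and for Gsta4 D17Wsu92e (0.986), Atp5f1 (0.981) and Ms4a6d (0.969). For Gstm1 they were Mfap3l (0.995), Sort1 (0.991) and Exosc9 (0.987). In HSCs only some of these genes were called. Clec4n (1.496), Mfap3l (0.51), Ms4a6d (0.40), Atp5f1 (0.39) and Sort1 (0.31) rose on the log2 scale, while Exosc9 (0.15), D17Wsu92e (0.10) and Cdc42se1 (0.08) did not pass (limma adjusted p = 0.148, 0.212 and 0.317), so a high r here does not stand for a change of like size. These values describe 8 points, of which the 4 vehicle points lie near 0 by construction, and all 3 sets share the same libraries. Gsta3 and Gsta4 were under 1 FPKM in each BMDM library and too low to test there. The BMDM points of their patterns therefore lie near the floor, and the filter on the genes compared did not apply to them.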

How the data were processed

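The authors deposited FPKM values, 1 table per cell type with 4 libraries each, and no counts. The submitters' processing notes name CASAVA, FastQC 0.11.7, Trimmomatic 0.38, HISAT2 2.1.0, StringTie 1.3.4d and the build mm10, with no role or order given. Groups, doses and replicate numbers came from the labels, and exposure times from the paper. The 10 genes, the lists and the tests were chosen with earlier results of these data known.

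FPKM values were taken as log2(FPKM + 1) with no further scaling, and each table was fitted alone with limma 3.58.1 (lmFit, then eBayes with trend) in R 4.3.3, comparing auranofin with vehicle over genes whose mean reached 1 FPKM. The fit was tested on simulated data in which both auranofin libraries changed alike. That setting does not represent BMDM, where 1 auranofin library stood apart. Depth was estimated from values under 0.2 FPKM, taken as steps of 1 fragment, with GENCODE M21 lengths and a tolerance of 0.05 of a step. At the depth chosen, 49.5% to 55.7% of the values compared lay within this tolerance. Fragment numbers are therefore estimates and cover counting error only. No column was left out. Gene identifiers matched the RefSeq gene table for 18601 and 17371 genes.

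Besides the 10 genes, those named were genes of the other lists that passed, at most 5 each way, transferase genes whose mean reached 10 FPKM, defining markers, Hmox1, and the 3 genes most like Gsta3, Gsta4 and Gstm1. The alternatives were a pseudocount of 0.1, no filter, a mean of at least 5 FPKM, quantile normalization, median centring, eBayes without trend, the replicate number as a block, each library left out, and, added after seeing the data, Gstp1 and Gstp2 summed and the other lists with each library left out. Promoter windows were read from a RefSeq table, in which 8 of the 10 genes had one. Python 3.11.15, pandas 2.3.3, numpy 2.4.6 and matplotlib 3.10.9 were used.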

Additional observations from a re-analysis of the deposited data

How the results depend on the processing

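In HSCs, 113 of 120 alternative values kept their direction and their side of the threshold. The filter, variance trend and block settings leave each estimate unchanged in both cell types, so in them only the call could move. The number of the 10 genes that rose was 4 to 6 over all alternatives and 5 to 6 when a library was left out, and 3 at the 1.5-fold threshold throughout. Gsta3, Gsta4, Gstm1 and Mgst1 passed in each, with a highest limma adjusted p of 0.0487, 0.0409, 0.0288 and 0.0326. Gstp1 did not pass with no filter on low values (adjusted p = 0.0542), where 18645 genes are tested. Gsto1 passed without vehicle replicate 1 (adjusted p = 0.0325). With a library left out, estimates crossed 0 for Gstm5 (−0.090 to 0.073) and Gstt2 (−0.028 to 0.12).

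In BMDM, 82 of 91 values were kept, and the result depended on 1 library. Without auranofin replicate 2, 5 genes passed the adjusted threshold and 4 the 1.5-fold threshold, Gstm1 (0.72), Gsto1 (0.77), Mgst1 (0.78) and Gstm2 (0.34) higher and Gstt1 (−0.85) lower. That fit takes its spread from the vehicle pair and assumes that the lone library varies like it, and it called 4201 genes higher and 1850 lower of 9285. Over the libraries left out, the counts ran from 0 to 5 and from 0 to 4, and estimates crossed 0 for Gstm1 (−0.014 to 0.72), Gstp1 (−0.017 to 0.33), Gstt2 (−0.24 to 0.091) and Mgst1 (−0.11 to 0.78). Without auranofin replicate 1, 0 of 8 passed, with Gstm2 at 0.38 (limma adjusted p = 0.53).

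The replicate numbers of the labels are shared between groups, but nothing says what they pair. Replicate differences of the groups correlated at 0.11 across genes in HSCs and −0.06 in BMDM. With the replicate block, Gsto1 also rose in HSCs (0.26, limma adjusted p = 0.0411), giving 6 genes, and no other call among the 10 genes changed. Over all genes the block gave 148 higher and 134 lower in HSCs, against 151 and 132, and 26 and 16 past the 1.5-fold threshold in BMDM, against 8 and 6.

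Over all HSC genes, 40 rose and 9 fell with no filter, 85 and 44 without the variance trend, 279 and 238 without vehicle replicate 1, and 96 and 83 without auranofin replicate 1. The cause was not tested. At the 1.5-fold threshold 52 were higher and 18 lower in HSCs, against 81 and 43 with a pseudocount of 0.1 and between 64 and 91 higher and 42 and 62 lower with a library left out. In BMDM the 8 and 6 became 18 and 9 with a pseudocount of 0.1, 3 and 5 at a mean of at least 5 FPKM, 8 and 10 with quantile normalization or median centring, 17 and 10 without vehicle replicate 2, and 15 and 16 without auranofin replicate 1. At the adjusted threshold, 1 gene was called in BMDM, 8 rose and 7 fell without auranofin replicate 1, and no more than 3 were called otherwise, auranofin replicate 2 left out apart. Both scalings moved the BMDM median from 0.09 to 0.00. The alpha genes had a mean under 1 FPKM in BMDM and were not tested there.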
